A study of Mus musculus with 2 samples.

Results

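TRIM proteins are ubiquitin ligases named for their tripartite motif, a RING domain followed by B-box domains and a coiled coil. The RING domain brings a ubiquitin-loaded conjugating enzyme to the substrate, and the C-terminal part chooses that substrate. In striated muscle the family is best known for the muscle RING finger (MuRF) proteins, which sit on the sarcomere and the microtubules and mark contractile proteins for the proteasome. In innate immunity other members restrict viruses or add ubiquitin to the sensors of viral RNA, and many of those genes are themselves induced by interferon.

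The members described here are all mouse genes whose symbol is Trim followed by a number, and the muscle members Trim54, Trim55 and Trim63 were contrasted with the rest. Of 69 such symbols in the annotation, 68 of them protein coding and 1 a pseudogene, 39 had at least 1 transcript in the deposited table, out of 12384 genes in all. Those 39 genes had 74 listed transcripts, and 14 of them had a single one. A mean of at least 1 FPKM (a fragment count corrected for the length of the transcript and the depth of the library) over both libraries was reached by 35, and these 35 are called tested here. The other 4 listed members were Trim16, Trim45, Trim59 and Trim34b. Symbols with no transcript in the table, 30 of them, were not analysed here. Among them were Trim6, Trim30b, Trim30c, Trim38 and Trim66, each of a role described below.

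Hearts of C57BL/6 mice were profiled by RNA sequencing of total RNA after 14 days (2 weeks) of an infusion from a dorsally implanted osmotic minipump. The CHAPIR library is from a heart treated with a mimic of CHAPIR, a PIWI-interacting RNA, at 30 mg/kg. The NC library is from a heart treated by the same route with a scrambled mimic, the negative control. Sources used here do not state the animals' age or sex, or the dose of the scrambled mimic. Each group held 1 library, so every difference below describes these 2 libraries, with no replicate check, no test and no error.

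Summed values were similar in the libraries, at 401938 FPKM (CHAPIR) and 394675 FPKM (NC). The Y-linked genes Ddx3y, Eif2s3y, Uty and Kdm5d were at 1.45 to 22.1 FPKM with CHAPIR and listed at 0 with NC, so that the apparent sex of the hearts and the mimic differed together and cannot be told apart. Heart markers were present. All 8 cardiomyocyte markers were present in both libraries at 85.3 FPKM or more, whereas of 8 skeletal muscle markers 5 had no transcript in the table and the other 3 summed to 7.31 FPKM (CHAPIR) and 9.29 FPKM (NC). Ratios below are log2(CHAPIR + 1) minus log2(NC + 1), which understates the change of low genes, and a gene is counted as higher or lower when that ratio reached 1.5-fold. Of 11095 genes tested, 6.38% were higher in the CHAPIR library by this measure and 3.59% were lower.

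Regulatory sequence next to the start sites was read first for the members that differed most. The interferon-stimulated response element (ISRE) is the DNA site of transcription factors that interferon activates, and was searched on both strands as GAAA, any 2 bases and GAAA again, from 250 bases before to 50 after each RefSeq start site (GRCm38.p6). Of the 39 listed members, 30 had such a promoter entry. The 30-base stretches round the element are shown in the direction of transcription for the 6 members counted as higher in the CHAPIR library, for their neighbour Trim12c and for Trim26, which was lower. Capitals mark the element, which reads TTTC, 2 bases and TTTC where it lies on the other strand, and overlapping matches are merged.
Trim34a (chr7:104244457-104244486, plus strand): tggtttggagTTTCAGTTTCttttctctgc
Trim5 (chr7:104288136-104288165, minus strand): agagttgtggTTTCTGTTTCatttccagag
Trim12a (chr7:104315466-104315495, minus strand): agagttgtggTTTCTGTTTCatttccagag
Trim12c (chr7:104353359-104353388, minus strand): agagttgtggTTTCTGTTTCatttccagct
Trim30a (chr7:104465210-104465239, minus strand): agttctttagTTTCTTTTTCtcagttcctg
Trim30d (chr7:104507871-104507900, minus strand): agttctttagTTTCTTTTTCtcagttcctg
Trim21 (chr7:102565447-102565476, minus strand): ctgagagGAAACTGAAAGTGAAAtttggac
Trim26 (chr17:36836979-36837008, plus strand): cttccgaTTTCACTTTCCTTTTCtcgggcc

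All 6 members that were higher held the element, as did Trim12c and Trim26, while Trim39, the other member that was lower, did not. The Trim5, Trim12a and Trim12c stretches are alike in nearly all letters, as are those of Trim30a and Trim30d, since these genes are close copies of each other, so the matches are not independent. Trim30a held a second match in another of its promoter windows. The matches of Trim34a, Trim12a and Trim21 lie just after the annotated start site, and those of Trim5, Trim12c, Trim30a and Trim30d between 20 and 49 bases before it. The remaining match among listed members, in Trim2, was in 1 of several alternative promoters. Over all promoter windows 3.44% held the element, and 3.99% of genes held it in any window. Of the 552 genes with a promoter entry that were higher in the CHAPIR library, 11.4% held it. Among all tested genes with a promoter entry, 18.8% of the 336 with the element were higher in the CHAPIR library, against 5.82% of the 8396 without it. A match is a description of these letters and no evidence of binding.

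The whole upstream window is shown for Trim30d, the member with the highest ratio, and for Trim63, the muscle member with the lowest. Capitals mark the ISRE in Trim30d. In Trim63 they mark a site of the FOXO factors, which are known to switch on MuRF1 in wasting muscle, searched as GTAAACA on both strands and found in 3.65% of all windows and in 1 other TRIM gene, Trim67.
Trim30d upstream (chr7:104507850-104508099, minus strand): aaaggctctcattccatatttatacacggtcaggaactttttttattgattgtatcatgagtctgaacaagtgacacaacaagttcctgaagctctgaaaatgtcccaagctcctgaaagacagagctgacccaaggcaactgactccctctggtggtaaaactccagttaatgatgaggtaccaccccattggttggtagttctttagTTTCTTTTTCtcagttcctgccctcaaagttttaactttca
Trim63 upstream (chr4:134314870-134315119, plus strand): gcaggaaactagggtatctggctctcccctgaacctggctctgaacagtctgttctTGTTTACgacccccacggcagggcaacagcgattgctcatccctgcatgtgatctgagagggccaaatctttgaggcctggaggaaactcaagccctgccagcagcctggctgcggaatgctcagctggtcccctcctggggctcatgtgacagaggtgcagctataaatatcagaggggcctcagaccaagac

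**Figure D1:**
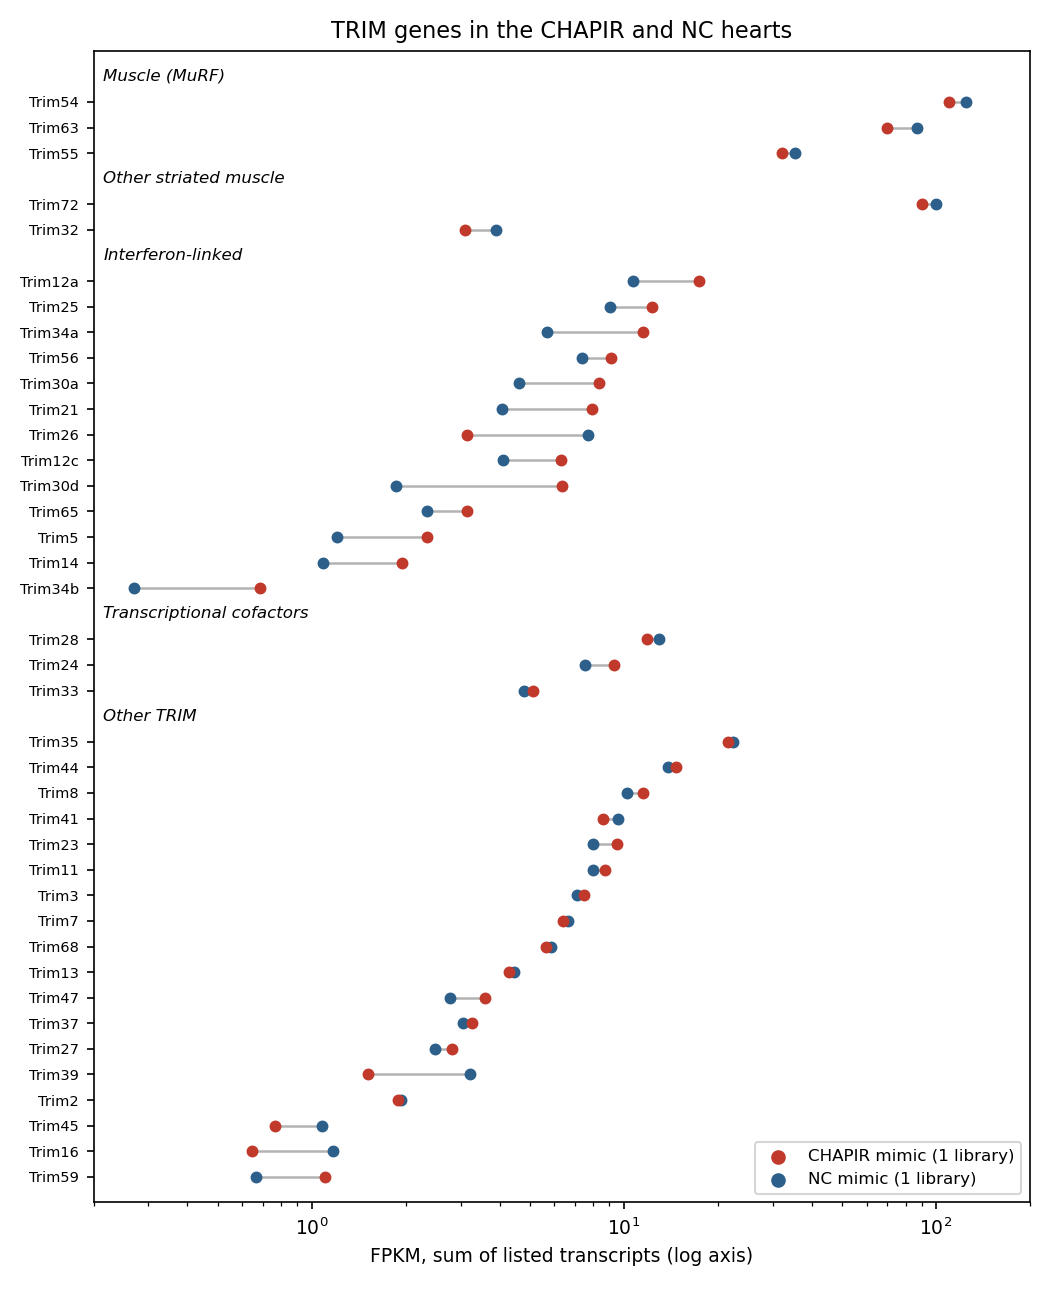
FPKM of the 39 listed TRIM genes (sum of the listed transcripts, log axis) in the CHAPIR library (red) and the NC library (blue), grouped by role, 1 library each. Muscle members and Trim72 lead in both libraries, and red points lie to the right of blue points for every interferon-linked gene except Trim26.

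Muscle members were the most abundant TRIM genes of the heart in both libraries, together with Trim72. All 3 had slightly negative ratios, none past 1.5-fold. Trim54, or MuRF3, binds microtubules and the Z-disc, and lies at chromosome 5, 31116712 to 31137630 (GRCm38, plus strand). It was at 110.1 FPKM (CHAPIR) and 125 FPKM (NC), a log2 ratio of -0.18. Trim63, or MuRF1, the ligase that marks troponin I and myosin for breakdown and binds titin at the M-band, lies at chromosome 4, 134315120 to 134329629. It was at 69.9 FPKM (CHAPIR) and 86.8 FPKM (NC), a log2 ratio of -0.31. Trim55, or MuRF2, another titin-binding member, lies at chromosome 3 and was at 32.2 FPKM (CHAPIR) and 35.4 FPKM (NC), a log2 ratio of -0.13. The order Trim54, Trim63, Trim55 was the same in each library.

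These 3 genes summed to 212 FPKM with CHAPIR and 247 FPKM with NC, which is 39.6% and 45.0% of all TRIM signal. Their mutual proportions moved little. Trim54 made up 51.9% of the muscle sum with CHAPIR and 50.5% with NC, Trim63 32.9% and 35.2%, and Trim55 15.2% and 14.3%. Against genes of like level these ratios were unremarkable except that of Trim63. Among the 1768 genes with a mean of 20 to 100 FPKM the central 80% of log2 ratios ran from -0.29 to 0.27 with a median of -0.04, so Trim63 lay just below that range and Trim55 inside it. Among the 442 genes at 100 FPKM or more it ran from -0.26 to 0.20 with a median of -0.07, and Trim54 lay inside it.

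Cardiomyocyte markers had ratios of a like size. None of the 8 passed 1.5-fold, 6 had a negative ratio, their median log2 ratio was -0.17, and their sum was 13277 FPKM (CHAPIR) and 14298 FPKM (NC). In bulk tissue fewer cells of a type and less RNA per cell cannot be told apart, and the part of the marker difference in the muscle members was not tested.

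Contrasted with the other TRIM genes, the muscle members had a median log2 ratio of -0.18 against 0.13 over the 32 other tested members, a difference of -0.30. Over all genes tested the median was 0.00. Of the 32, 27 had a ratio above the highest muscle ratio, 3 lay within the muscle range and 2 below it. How many of all genes lay above that ratio was not counted, so the 27 cannot be read as particular to the family. Of all genes tested 49.2% had a ratio below 0. Their median fell with level, from 0.04 at a mean of 1 to 5 FPKM to -0.07 at 100 FPKM or more. Muscle members are the more abundant side of the contrast, and the part of level in it was not tested. Without the interferon-linked members the contrast was smaller, since the 20 tested genes outside both lists had a median of 0.02, with 10 positive and 10 negative ratios.

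**Figure D2:**
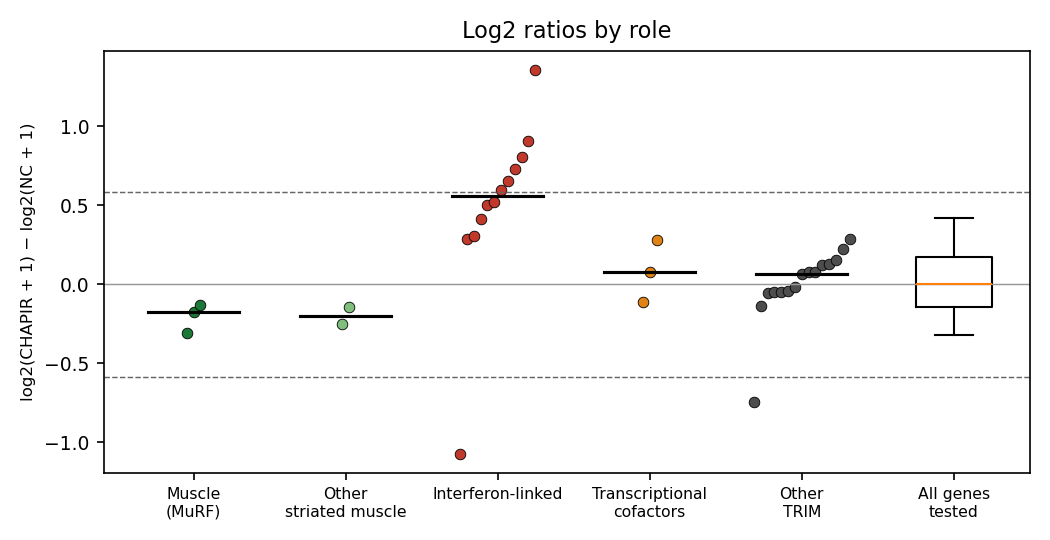
Log2 ratio, log2(CHAPIR + 1) minus log2(NC + 1), of each tested TRIM gene by role, with the median as a bar. The box shows the quartiles of all 11095 genes tested with whiskers at the percentiles 10 and 90, and dashed lines mark 1.5-fold. Muscle members sit slightly below 0, interferon-linked members sit above it apart from Trim26, and the rest lie round 0 apart from Trim39.

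The other 2 genes tied to striated muscle had small negative ratios too. Trim72, or MG53, seals tears in the muscle cell membrane, and was at 90.1 FPKM (CHAPIR) and 99.9 FPKM (NC), a log2 ratio of -0.15. It ranked second of all TRIM genes in both libraries. Trim32, which is mutated in a human limb-girdle muscular dystrophy, was at 3.10 FPKM (CHAPIR) and 3.89 FPKM (NC), a log2 ratio of -0.25. Its level was thus far below that of the MuRF genes, and neither gene passed 1.5-fold.

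The total of Trim63 hid an exchange between its 2 listed transcripts. Trim63-201 stood at 51.6 FPKM with NC and was listed at 0 with CHAPIR, while Trim63-202 was at 69.9 FPKM (CHAPIR) and 35.2 FPKM (NC). Transcript 201 therefore supplied 59.5% of the gene's signal with NC and none with CHAPIR. Both have 9 exons and differ by the end of exon 8, where transcript 202 runs on for 9 coding bases (chromosome 4, 134327774 to 134327782, GRCm38), and by a few bases at the outer ends. The coding sequence from 30 bases before that point to the stop codon is shown for each transcript, with the bases that only 202 has in capitals.
Trim63-201: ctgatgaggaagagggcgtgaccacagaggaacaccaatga
Trim63-202: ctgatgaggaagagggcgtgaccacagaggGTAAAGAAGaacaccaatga

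The 2 transcripts share 98.4% of the 31-base words of transcript 201, so few reads can tell them apart, and a listed 0 can be a failed estimate. With transcript 202 alone, the more abundant one, the log2 ratio of Trim63 would be 0.97 in place of -0.31, so the direction of Trim63 rests on the sum. The transcripts of the other muscle members gave no such split. Trim54-201 carried 95.8% of the Trim54 signal with CHAPIR and 95.4% with NC, and Trim55 had 1 listed transcript. Of Trim72, transcript 202 carried 89.5% and 90.2%.

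Such opposed transcripts were not particular to Trim63. Among the 25 TRIM genes with several listed transcripts, 6 had 1 transcript at least 1.5-fold higher and another at least 1.5-fold lower in the CHAPIR library, counting transcripts with a mean of at least 0.5 FPKM. Over all 5664 genes with several listed transcripts the share was 20.7%, so the TRIM count lies near the background. The 6 were Trim3, Trim24, Trim26, Trim39, Trim47 and Trim63, and both genes counted as lower are among them.

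**Figure D3:**
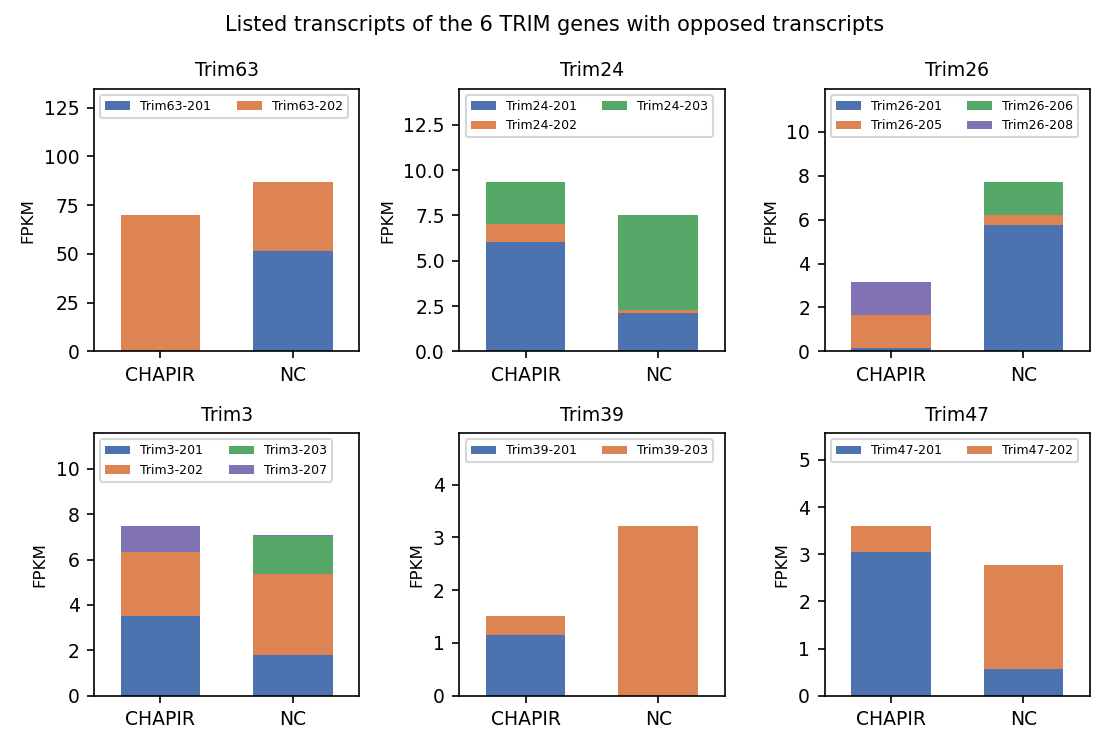
FPKM of each listed transcript, stacked, in the CHAPIR and NC libraries for the 6 TRIM genes with opposed transcripts, 1 library each. In Trim63 the NC bar is split between 201 and 202 and the CHAPIR bar is all 202, while Trim26 and Trim39 differ in both their transcripts and their total height.

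Every TRIM gene counted as higher in the CHAPIR library was interferon-linked, as was Trim26, which was lower. The interferon-linked list was chosen with earlier results of these data known, so its counts describe the values and are no independent support. Of 17 genes in this list 13 were listed and 12 tested, 6 of them higher by 1.5-fold and 1 lower. Their median log2 ratio was 0.56, and 11 of the 12 had a positive ratio. All 35 tested TRIM genes held 6 that were higher (17.1%) and 2 that were lower (5.71%), with a median of 0.08. Over all genes tested the shares were 6.38% higher and 3.59% lower. They were 8.35% and 5.20% at a mean of 1 to 5 FPKM, and 5.84% and 2.71% at 5 to 20 FPKM. The lower count of 2 lies near these shares. The list sum, which includes Trim34b, was 90.5 FPKM (CHAPIR) and 60.0 FPKM (NC). At 2-fold, reached by 2.35% of all genes tested on the higher side and 1.15% on the lower, stood Trim30d and Trim26 alone among the 35.

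Most of these genes form 1 cluster of close copies at chromosome 7, 104244457 to 104507849 (GRCm38), the mouse counterpart of the human region that holds the retrovirus restriction factor TRIM5. It spans 263 kb and 9 TRIM genes, of which 7 were listed and 6 tested, and 5 of the 6 were higher. Of all genes tested 6.38% were higher. Because the copies share sequence, the 5 are not independent calls. No gene other than these TRIM genes was listed inside it. Trim30d was at 6.34 FPKM (CHAPIR) and 1.87 FPKM (NC), a log2 ratio of 1.36, the highest of the family. Both of its listed transcripts shared the difference, since transcript 202 held 68.4% and 68.6% of the signal. Trim30a, known in mouse to restrain NF-kB signalling, was at 8.32 FPKM (CHAPIR) and 4.61 FPKM (NC), a log2 ratio of 0.73. The 2 genes are neighbours at the right end of the cluster.

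At its other end Trim34a was at 11.5 FPKM (CHAPIR) and 5.69 FPKM (NC), a log2 ratio of 0.90. Its difference lay in 1 of 3 listed transcripts with the same coding exons. Trim34a-203 was at 6.99 FPKM (CHAPIR) and 0.69 FPKM (NC), whereas 201 was at 1.53 and 1.75 FPKM and 202 at 2.99 and 3.25 FPKM. Trim12a, the most abundant gene of the list, was at 17.4 FPKM (CHAPIR) and 10.7 FPKM (NC), a log2 ratio of 0.65. Here the transcripts differed in size of effect rather than direction. Trim12a-202 was at 7.15 FPKM (CHAPIR) and 3.18 FPKM (NC), and Trim12a-201 at 4.50 and 2.62 FPKM. Trim12a-203 was at 5.73 and 4.87 FPKM, in the same order. Of the sequence words of Trim34a-203 98.8%, and of Trim12a-202 97.9%, also occur in other listed transcripts of the same gene. The part of shared reads in these transcript values was not tested.

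Trim5, a mouse relative of the human restriction factor, was at 2.34 FPKM (CHAPIR) and 1.202 FPKM (NC), a log2 ratio of 0.60, barely past 1.5-fold. Trim12c followed just inside that limit, at 6.32 FPKM (CHAPIR) and 4.10 FPKM (NC), a log2 ratio of 0.52. Trim34b, under the level limit, was at 0.69 FPKM (CHAPIR) and 0.27 FPKM (NC). All 7 listed cluster genes thus had the larger value with CHAPIR, and 5 of them were counted as higher. The sum of the 7 was 52.9 FPKM (CHAPIR) and 28.4 FPKM (NC), a log2 ratio of 0.87.

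Values of single cluster genes are uncertain because the copies share sequence. Of the 31-base words of Trim34b-201, 71.0% also occur in Trim34a, and of those of Trim5-202 39.5% occur in Trim12c and 55.2% in any other gene. For the listed Trim34a transcripts 49.8% to 63.4% of the words occur in Trim34b. For those of Trim12a 33.3% to 40.9% occur in any other gene, and for Trim12c 48.9%. The overlap is smaller for Trim30a, at 11.8% in any other gene, and the Trim30d transcripts stood at 12.3% for 202 and 22.7% for 201. Sources used here do not say how reads that fit several copies were shared. Counted as 1 gene, the cluster gives 2 TRIM genes that were higher, itself and Trim21, out of 30.

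Trim21, the cytosolic antibody receptor that sends antibody-coated viruses to the proteasome, lies on the same chromosome 1679 kb before the cluster. It was at 7.90 FPKM (CHAPIR) and 4.09 FPKM (NC), a log2 ratio of 0.81. Trim21-201 was at 5.03 FPKM (CHAPIR) and 4.09 FPKM (NC), and Trim21-202, with the same coding exons, at 2.88 FPKM and listed at 0. The difference thus sat mostly in a transcript that shares 99.0% of its 31-base words with 201, and the log2 ratio of 201 alone was 0.24. Only 2.75% of its words occur in another gene, and the part of shared reads in its value was not tested.

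The remaining interferon-linked genes had smaller positive ratios. Trim25, which adds ubiquitin to the RNA sensor RIG-I, was at 12.4 FPKM (CHAPIR) and 9.05 FPKM (NC), a log2 ratio of 0.41. Trim14, an adaptor of antiviral signalling on mitochondria, was at 1.95 FPKM (CHAPIR) and 1.09 FPKM (NC), a log2 ratio of 0.50. Trim65, a ligase of the RNA sensor MDA5, was at 3.15 FPKM (CHAPIR) and 2.35 FPKM (NC), and Trim56, another antiviral ligase, at 9.14 and 7.33 FPKM, with log2 ratios of 0.31 and 0.28. None of these ratios, which include the pseudocount, reached 1.5-fold. Trim25 and Trim56 had no match to the ISRE in their windows.

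Other interferon-induced genes give a scale. Their list, like that of the interferon-linked TRIM genes, was chosen with earlier results of these data known, so its count is no independent support. Of all genes tested 6.38% were higher. All 24 genes of a reference list were higher in the CHAPIR library, with a median log2 ratio of 1.47, from 0.71 for the antiviral enzyme gene Rsad2 (13.9 against 8.11 FPKM) and 1.02 for Ifit2 (20.97 against 9.84 FPKM) to 2.44 for Xaf1 (22.3 against 3.28 FPKM) and 2.64 for the GTPase gene Igtp (204 against 31.9 FPKM). Only Trim34a, Trim21, Trim30a and Trim30d of the TRIM genes had ratios above the lowest of that list. Macrophage markers moved with them, since all 9 had positive ratios, 6 passed 1.5-fold and 0 were lower (median 0.70), and they summed to 473 FPKM (CHAPIR) and 273 FPKM (NC). Their part in the TRIM values was not tested. Of 6 T and NK cell markers 2 were tested, 1 of which was higher, and the list summed to 8.65 FPKM (CHAPIR) and 2.84 FPKM (NC), with Gzma listed at 0 with NC. Adipocyte markers differed most among the marker lists. Of 6, 5 were tested and 4 were lower (median -1.89), where 3.59% of all genes tested were lower. The adipokine gene Adipoq was at 1.35 FPKM (CHAPIR) and 9.87 FPKM (NC), and Retn and Lep were listed at 0 with CHAPIR. The list summed to 425 FPKM (CHAPIR) and 448 FPKM (NC). Nearly all of that was Fabp4, at 422 and 423 FPKM, the tested marker that was not lower, so the sums hide the difference of the others. Of 5 fibroblast markers 1 was higher and 0 were lower (sums of 548 and 473 FPKM), and none of 5 endothelial (179 and 158 FPKM) or 4 atrial markers (2522 and 2718 FPKM) passed 1.5-fold. The part of these cell types in the TRIM values was not tested either.

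Trim26 was the exception in the list and the lowest TRIM gene by ratio. This antiviral signalling ligase of the MHC region on chromosome 17 (36837134 to 36859398) was at 3.14 FPKM (CHAPIR) and 7.70 FPKM (NC), a log2 ratio of -1.07. Its 4 listed transcripts disagreed. Trim26-201 was at 0.14 FPKM (CHAPIR) and 5.74 FPKM (NC) and Trim26-206 was listed at 0 and at 1.48 FPKM, whereas Trim26-205 was at 1.53 and 0.48 FPKM and Trim26-208 at 1.46 FPKM and listed at 0. Transcripts 201 and 205 have the same coding exons and differ before them, at the start of exon 2, and share nearly all of their sequence. The lower total of Trim26 remained after each transcript was weighted by its length.

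Trim39, 565 kb before Trim26 on the same chromosome, was the other TRIM gene counted as lower. It stabilises the pro-apoptotic protein MOAP-1 and was at 1.51 FPKM (CHAPIR) and 3.21 FPKM (NC), a log2 ratio of -0.74. Trim39-201 was at 1.15 FPKM and listed at 0, and Trim39-203 at 0.37 FPKM (CHAPIR) and 3.21 FPKM (NC). Both have the same coding exons, and 96.4% of the sequence words of Trim39-201 also occur in Trim39-203. The part of shared reads in this split was not tested. The 2 genes are the only listed members of 6 TRIM symbols on chromosome 17.

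**Figure D4:**
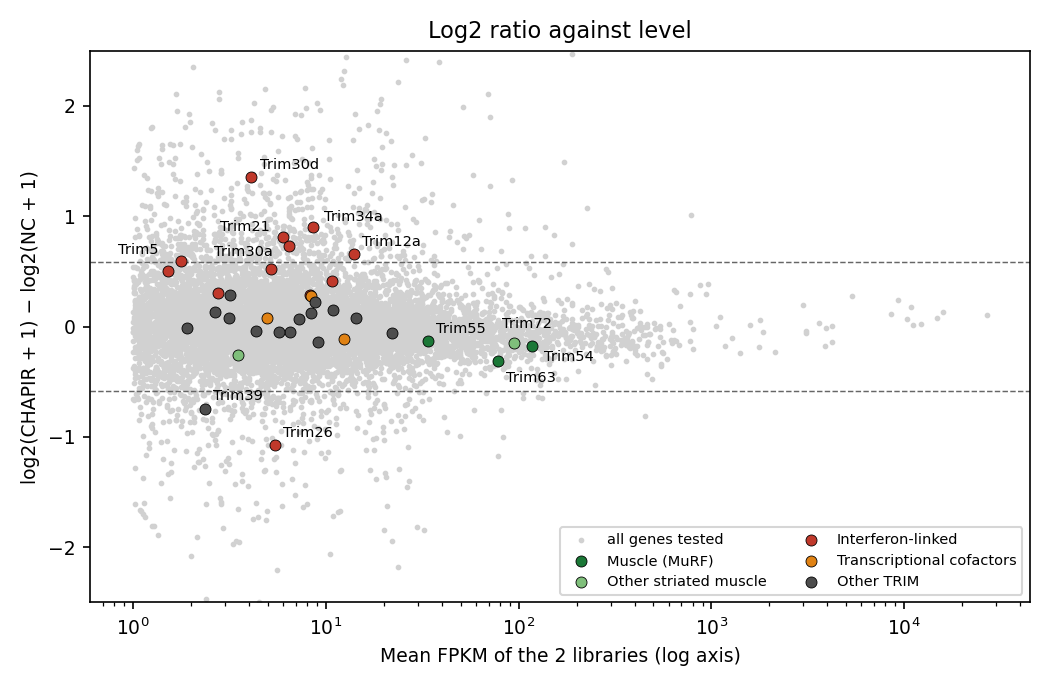
Log2 ratio against the mean FPKM of the libraries (log axis) for all genes tested (grey) and the tested TRIM genes by role, with dashed lines at 1.5-fold. The axis stops at 2.5 either way, which leaves 26 genes out. Muscle members and Trim72 lie at the high end of the level axis just below 0, and the members past 1.5-fold all lie below a mean of 20 FPKM.

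Transcriptional cofactors of the family differed little. Trim28, or KAP1, the corepressor of KRAB zinc finger proteins, was at 11.9 FPKM (CHAPIR) and 13.0 FPKM (NC), a log2 ratio of -0.12. Trim33, which regulates SMAD signalling, was at 5.10 and 4.78 FPKM, a log2 ratio of 0.08. Trim24, a nuclear receptor cofactor, was at 9.34 and 7.51 FPKM, a log2 ratio of 0.28, but by transcript it was divided. Trim24-201 was at 6.02 FPKM (CHAPIR) and 2.09 FPKM (NC) and Trim24-203 at 2.33 and 5.23 FPKM. They have 18 of 19 coding exons in common. Of the sequence words of Trim24-203, 99.3% also occur in other listed transcripts of the gene. The part of shared reads in this division was not tested.

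The other 18 listed members, of which 15 were tested, held 0 that were higher and 1 that was lower, Trim39, with a median log2 ratio of 0.07 and 8 positive and 7 negative ratios. The most abundant of them were near equal in the libraries. Trim35 was at 21.6 FPKM (CHAPIR) and 22.5 FPKM (NC), Trim44, a member without a RING domain, at 14.7 and 13.9 FPKM, and Trim8, a regulator of cytokine signalling, at 11.5 and 10.3 FPKM. Apart from Trim39, log2 ratios ran from -0.14 for Trim41 to 0.28 for Trim47. Trim47 was divided by transcript too, with Trim47-201 at 3.04 FPKM (CHAPIR) and 0.56 FPKM (NC) and Trim47-202 at 0.55 and 2.21 FPKM. Of the sequence words of Trim47-201, 98.2% also occur in Trim47-202. The part of shared reads in this split was not tested. Trim37, whose loss in humans causes a growth disorder with constrictive pericarditis, was at 3.27 and 3.06 FPKM. Under the level limit Trim16 was at 0.65 and 1.17 FPKM, Trim45 at 0.76 and 1.08 FPKM and Trim59 at 1.10 and 0.66 FPKM.

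Partners of the TRIM ligases in the ubiquitin pathway were mostly alike in the libraries. Of 18 ubiquitin and conjugating enzyme genes 1 was higher and 1 lower, and the median log2 ratio was -0.02. These counts lie near the shares over all genes tested, 6.38% higher and 3.59% lower. Ube2v1, the inactive partner of Ube2n in building signalling ubiquitin chains, was at 29.9 FPKM (CHAPIR) and 6.97 FPKM (NC), a log2 ratio of 1.95, and Ube2j1, an enzyme of the endoplasmic reticulum, came next at 11.2 and 9.39 FPKM. Ube2d3, a conjugating enzyme used by many RING ligases, was at 55.05 FPKM (CHAPIR) and 111 FPKM (NC), a log2 ratio of -0.998. Ubb, a polyubiquitin gene, was at 238 and 227 FPKM.

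Ubiquitin ligases of muscle outside the family had a median log2 ratio of -0.05, with 0 of 22 higher and 2 lower. Over all genes tested the shares were 6.38% and 3.59%, and 2 genes are too few to read as a result about this list. Nedd4l, which removes ion channels from the membrane, was at 2.97 FPKM (CHAPIR) and 7.999 FPKM (NC), a log2 ratio of -1.18, and its relative Nedd4 at 59.9 and 102 FPKM, a log2 ratio of -0.76. The highest ratios were 0.20 both for Fbxo30 (7.92 against 6.74 FPKM) and for Cblb (3.43 against 2.84 FPKM), and Asb2 was the most abundant at 116 and 108 FPKM. Fbxo32, or atrogin-1, the other classical ligase of muscle wasting and named here after its values were seen, was at 22.9 and 30.6 FPKM, a log2 ratio of -0.40.

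Genes under other names that share some domains with TRIM proteins had a median log2 ratio of 0.10, and 1 of the 8 tested was higher and 0 were lower. Over all genes tested 6.38% were higher and 3.59% lower. Mid1, a microtubule-bound ligase, was at 1.74 FPKM (CHAPIR) and 0.80 FPKM (NC), and its relative Mid2 at 5.79 and 4.58 FPKM. The lowest ratios were those of Rnf135 (2.29 against 2.62 FPKM) and Fsd2 (74.1 against 79.0 FPKM), and the muscle gene Cmya5 was the most abundant at 83.3 and 82.6 FPKM. Substrates and partners of the MuRF proteins had 0 of 16 past 1.5-fold in either direction. Of all genes tested 49.2% had a negative ratio, and in this list 13 did, with a median log2 ratio of -0.05. The highest were the slow myosin gene Myh7 (335 against 234 FPKM) and the transcription factor gene Foxo1 (4.08 against 3.83 FPKM), and the lowest Rack1 (118 against 145 FPKM) and the myosin-binding protein gene Mybpc3 (532 against 652 FPKM). The most abundant, troponin T gene Tnnt2 and light chain gene Myl2, were at 4235 and 4210.4 FPKM and at 3922 and 3947 FPKM.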

How the data were processed

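The authors deposited 1 table with 1 value per Ensembl transcript and library. The values are treated here as FPKM computed by the authors. Neither labels nor header name the unit, which was inferred from the values, and if they were TPM all ratios would shift by the same amount before the pseudocount. Per the submitters' processing notes, which give no roles, the tools were StringTie, HISAT2 2.0.5, STAR 2.5.2b and cutadapt, and the build was GRCm38. The table lists 23178 transcripts, each at 0.5 or more in at least 1 library. Low values showed no whole-read steps, so depth is unknown.

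Transcripts were matched without version to GENCODE M21 (23128 matched, 50 not) and summed by symbol, with Python 3.11.15, pandas 2.3.3 and numpy 2.4.6. Ratios use a pseudocount of 1, and a gene was tested where its mean reached 1 FPKM. The calls were checked on simulated data with less scatter than these libraries and no misassigned transcripts. That check covers the arithmetic only and does not bear on the calls made here. Named are the muscle members, tested members past 1.5-fold, the 3 most abundant of each role and, of each non-marker list, the 2 highest and lowest ratios and 2 most abundant genes, some of which are not reported here. Other members are named as examples, to account for them. Marker lists are given by counts and sums. Members and lists were chosen with earlier results of these data known.

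Promoters are from RefSeq (GRCm38.p6), and transcript sequences from GENCODE M21. Protein sequences were not used here.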

Additional observations from a re-analysis of the deposited data

How the results depend on the processing

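No paired analysis was possible because there was a single library in each group, and no limit from depth can be stated. Added after the values were seen were length-weighted transcripts, genes with 1 listed transcript, and the chromosome 7 cluster left out or taken as 1 gene. A pseudocount of 5 reduced the TRIM genes counted as higher from 6 to 2 and those lower from 2 to 1, and all genes from 708 to 270 higher and from 398 to 137 lower. A pseudocount of 0.1 raised the lower count of all genes to 603 and the TRIM genes counted as higher to 8, with Trim12c and Trim14 added. Requiring a mean of 5 FPKM left 4 TRIM genes higher and 1 lower, and 345 higher and 172 lower of all genes. Genes with 1 listed transcript gave 2 TRIM genes higher and 0 lower, and 337 and 163 of all genes. Leaving the cluster out gave 1 TRIM gene higher, and taking it as 1 gene gave 2. The most abundant transcript gave 1065 higher and 745 lower of all genes, and 7 TRIM genes higher, of which 4 are shared with the 6 while Trim24, Trim47 and Trim63 joined. Quantile normalization dropped Trim5. The interferon-linked median of 0.56 was 0.74 and 0.31 at pseudocounts of 0.1 and 5, 0.36 from the most abundant transcript, 0.36 without the cluster and 0.41 with it as 1 gene. Stricter filters test fewer genes and larger pseudocounts shrink ratios by construction, and for the other changes the cause was not tested. The muscle median, that of the other members and their difference each moved by under 0.1 in all settings tried. A median of 3 genes can stay put while 1 of them moves far. With the most abundant transcript it was -0.13 although Trim63 changed sign, and with genes of 1 listed transcript it was Trim55 alone. The steady muscle median thus does not speak for each of its members. For the single TRIM genes named by the rule, 222 values shifted less than the SD among genes of similar level and 9 shifted more, 7 of these from using the most abundant transcript, where Trim63 became 0.97 and Trim21 0.24.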
